A study of Gallus gallus with 24 samples.

Results

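The semaphorins, netrins, ephrins and FLRT proteins are ligands, and the plexins, neuropilins, Eph receptors and UNC5 receptors are among their receptors. Together with the Slits and their Robo receptors they are known as the axon guidance molecules. They were taken from the gene table by symbol or by the UniProt entry name that stands in its place, which gave 46 of 17934 genes. There were 14 semaphorins, 7 plexins, 1 neuropilin, 2 ephrins, 10 Eph receptors, 1 Robo receptor, 5 netrins, 3 UNC5 receptors and 2 FLRT proteins. The symbol pattern also took in UNC50, a protein of the Golgi membrane that is no netrin receptor, and it is kept apart from the families. No Slit was among the genes found, and NRP1 was the neuropilin found. Genes that the table lists under another identifier, NRP2 and Slit genes among them, were not analysed here.

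Abdominal fat was taken at 7 wk of age from cockerels of a fat line (FL) and a lean line (LL), which had been selected in opposite directions for the weight of that fat depot. RNA of 4 FL and 4 LL birds was sequenced in 3 technical replicates per bird, here called runs. Some of these may be lanes of the same sequencing run. The unscaled counts of the 3 runs were summed. The bird is therefore the replicate (n = 4 per line). Bird totals were 4299772 to 10878211 counts in the FL and 5548867 to 12876999 counts in the LL.

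Semaphorins act on plexins, and the secreted class 3 semaphorins do so mostly through a complex of a plexin with a neuropilin. Ephrins are bound to the cell membrane and signal to Eph receptors on the neighbouring cell. Netrins act through UNC5 receptors, DCC and neogenin, and FLRT proteins bind UNC5 receptors and latrophilins. The same molecules steer growing axons in the embryo and, in adult tissues, shape blood vessels and the movement of immune cells. In mice, netrin-1 holds macrophages in the fat of obese animals and SEMA3E attracts macrophages through PLXND1. In zebrafish, Plxnd1 is known to affect where body fat is laid down.

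Levels are given in counts per 1000000 after TMM scaling (CPM). They are not corrected for the length of a gene, so that only birds, and not genes, are compared by CPM. Of the 46 genes, 40 had enough counts for the edgeR quasi-likelihood test. The 6 others (EPHA8, EPHA10, PLXNB1, SEMA4G, UNC5A and UNC5C) were too low, and EPHA10 had no more than 1 count in any bird. Each of the 40 genes had counts in every bird.

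FL replicate 4 stood apart from the other birds, since it held transcripts of skeletal muscle. Its skeletal muscle markers (4 of 7 genes matched in the table) summed to 13399 CPM, where the lowest FL bird had 83.0 CPM and the LL birds had 71.9 to 118 CPM. Its ACTA1, the skeletal muscle actin, was at 11218 CPM, where the other FL birds had 78.0 to 86.5 CPM and the LL birds 65.3 to 108 CPM. None of the markers was at 0 in all birds. The main counts below are therefore also given without this bird, as are the fold changes of the 8 genes with an unadjusted p under 0.05. Markers of the mesothelium or epithelium (4 of 10 matched) summed to 33.1 to 51.9 CPM in the FL and 42.1 to 100 CPM in the LL. Among them MSLN was at 1.96, 1.601, 1.09 and 1.82 CPM in FL replicates 1 to 4, against 1.14, 17.0, 14.1 and 5.25 CPM in LL replicates 1 to 4. UPK3B and EPCAM were likewise highest in LL replicates 2, 3 and 4. Their log2 fold changes were -2.71 and -3.35 (edgeR unadjusted p = 0.0325 and 0.0088), beside -2.51 for MSLN. LRRN4, the highest of the 4 markers in each bird, had -0.17. Markers of adipocytes (6 of 8 matched) summed to 10025 to 13424 CPM in the FL and 9299 to 12047 CPM in the LL, and those of the endothelium (11 of 15 matched) to 3850 to 4391 CPM in the FL and 3755 to 4705 CPM in the LL. The abdominal fat of each bird thus expressed the markers of its labelled tissue. Markers of smooth muscle and pericytes (5 of 8 matched) summed to 1355 to 1746 CPM in the FL and 1660 to 2056 CPM in the LL. Of the Schwann cell and neuron markers 7 of 16 were matched, and they summed to 196 to 225 CPM in the FL and 156 to 241 CPM in the LL. Of the 4 tested, MBP had a log2 fold change of 0.65 (edgeR unadjusted p = 0.0019, adjusted p = 0.134). It was at 39.4 to 59.5 CPM in the FL and 25.6 to 36.4 CPM in the LL. SOX10, PMP22 and NCAM1 had log2 fold changes of -0.29, -0.10 and 0.02. Fibroblast markers (6 of 8 matched) summed to 41362 to 65769 CPM in the FL and 52713 to 71992 CPM in the LL, and macrophage and leukocyte markers (6 of 10 matched) to 6023 to 6913 CPM in the FL and 4912 to 7405 CPM in the LL. In bulk tissue, fewer cells of a type and less RNA per cell cannot be told apart.

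None of the 40 tested genes was differentially expressed between the FL and LL at an edgeR adjusted p of at most 0.05 and a fold change of at least 1.2. Over all 11187 genes tested, 41 were (0.366%), of which 23 were higher (0.206%) and 18 lower in the FL (0.161%). At an unadjusted p under 0.05 there were 8 of the 40 (20%), beside 13.1% of all genes tested. Of these, 3 were higher in the FL (6.49% of all genes tested) and 5 were lower in the FL (6.62% of all genes tested). The birds of the lines did not overlap for 5 of the 40 (12.5%), beside 8.1% of all genes tested. For 2 of them all FL birds were above all LL birds (3.76% of all genes tested), and for 3 all FL birds were below all LL birds (4.34% of all genes tested). The median log2 fold change (FL over LL) was -0.08 over the 40 genes and 0.0021 over all genes tested. Without FL replicate 4, again none was called, 3 genes were higher in the FL (6.95% of all genes) and 7 lower (7.68% of all genes) at an unadjusted p under 0.05, and 4 genes lay wholly above (7.11% of all genes) and 4 wholly below the LL (6.73% of all genes). The Wald test of DESeq2 called 3 of the 40 (FLRT2, NTN1 and SEMA3G), beside 319 of all 11187 genes tested.

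**Figure D1:**
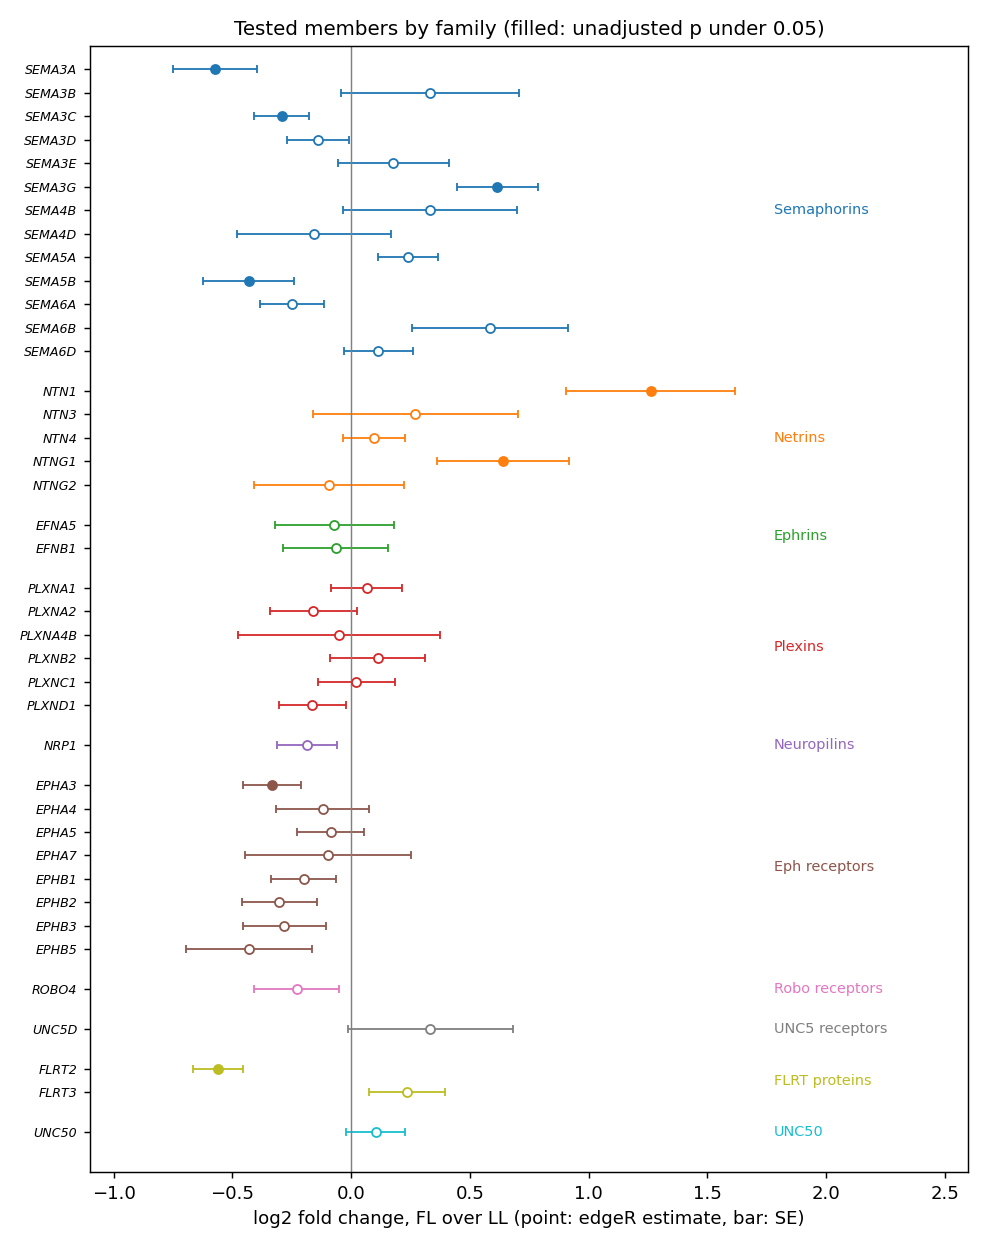
Log2 fold change (FL over LL) of the 40 tested genes in rows grouped by family, as points with the SE of the edgeR estimate as bars; filled points have an unadjusted p under 0.05. All 8 Eph receptors lie left of 0, NTN1 lies farthest to the right at 1.26, and the 13 semaphorins lie on either side of 0.

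Among the ligands, the semaphorins were the family with most members. Of the 13 tested, 7 had a fold change above 0 and 6 below 0, with a median log2 fold change of 0.11, and without FL replicate 4 there were 8 above and 5 below, with a median of 0.16. Their summed level was 1006 ± 62.0 CPM in the FL and 983 ± 72.6 CPM in the LL (SD, n = 4 each), which differed by less than the spread between birds. The secreted class 3 semaphorins were divided within their class, with 3 of 6 above 0 and 3 below, also without FL replicate 4.

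SEMA3G (chromosome 12, 2946189 to 2950210), a class 3 semaphorin that in mammals is made by endothelial cells, had 156, 119, 136 and 147 CPM in FL replicates 1 to 4, against 61.9, 104, 110 and 87.8 CPM in LL replicates 1 to 4. Every FL bird was above every LL bird, and LL replicate 1 was the lowest of the 8. On the log2 scale the fold change was 0.62 (SE 0.17, unadjusted p = 0.0043), and the edgeR adjusted p of 0.156 missed the threshold. SEMA3G passed it with the counts of runs 2 and 3 alone (edgeR adjusted p = 0.0476) and with DESeq2 (adjusted p = 0.0342). It did not with run 1 alone (edgeR adjusted p = 0.6896). Without FL replicate 4 the log2 fold change was 0.59 and the edgeR adjusted p 0.170.

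SEMA3A (chromosome 1, 9427038 to 9612751), a repellent of sympathetic and sensory axons and also a ligand of NRP1, had 19.9, 38.4, 30.9 and 28.5 CPM in FL replicates 1 to 4, against 48.3, 43.8, 38.8 and 43.4 CPM in LL replicates 1 to 4. The lines did not overlap, but FL replicate 2 and LL replicate 3 lay next to each other. This gave a log2 fold change of -0.57 ± 0.18 (SE), for which edgeR gave an adjusted p of 0.192. It was -0.57 also without FL replicate 4. SEMA3C (chromosome 1, 11988776 to 12047400), a secreted semaphorin known in humans as a product of fat cells, had 109, 123, 127 and 99.1 CPM in FL replicates 1 to 4, against 129, 126, 147 and 158 CPM in LL replicates 1 to 4. FL replicate 3 was above LL replicate 2, so that the lines overlapped, and FL replicate 4 was the lowest bird. Fitted over all genes, the log2 fold change was -0.29 ± 0.12 (SE), for which edgeR gave an adjusted p of 0.307. It was -0.23 without FL replicate 4.

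SEMA3A, SEMA3C, SEMA3D and SEMA3E lie on the same stretch of chromosome 1, between 8884276 and 12047400. SEMA3D averaged 159 ± 24.1 CPM in the FL and 175 ± 20.7 CPM in the LL (SD, n = 4 each), and its log2 fold change was -0.14 (SE 0.13). SEMA3E, the ligand that binds PLXND1 without a neuropilin, was at 5.74 ± 1.39 CPM in the FL and 5.12 ± 0.962 CPM in the LL (SD, n = 4 each). Its log2 fold change was 0.18 (SE 0.23). This is smaller than its SE, so whether the 4 neighbours pointed the same way cannot be told.

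SEMA5B and SEMA6D belong to the membrane-bound classes. SEMA5B (chromosome 7, 28132610 to 28231137), a repellent with thrombospondin repeats, had 23.98, 34.8, 20.3 and 28.8 CPM in FL replicates 1 to 4, against 30.0, 38.8, 45.4 and 30.1 CPM in LL replicates 1 to 4. FL replicate 2 lay within the range of the LL, and the other 3 FL birds lay below it. It had a log2 fold change of -0.43 ± 0.19 (SE), for which edgeR gave an adjusted p of 0.368, and -0.48 without FL replicate 4. SEMA6D, a ligand of PLXNA1, had 391, 414, 490 and 358 CPM in FL replicates 1 to 4, against 402, 443, 390 and 293 CPM in LL replicates 1 to 4. These birds overlapped widely (log2 fold change 0.11, SE 0.15). The 7 semaphorins that were tested and are named here for neither level nor p had log2 fold changes from -0.25 (SEMA6A) to 0.59 (SEMA6B). SEMA6B was highest in FL replicate 4, at 15.4 CPM, where the other FL birds had 5.49 to 9.90 CPM and the LL birds 4.70 to 9.04 CPM, and the part of the skeletal muscle transcripts in this value was not tested. Its log2 fold change was 0.23 without that bird. The span of SEMA6B lies wholly within that of another gene model in the table, and reads of the pair may be shared.

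Among the netrins, 4 of 5 had a fold change above 0, with a median log2 fold change of 0.27. When FL replicate 4 was left out there were 3 of 5, with a median of 0.05, and the median was 0.05 to 0.69 with any 1 bird left out. Their summed level was 167 ± 16.1 CPM in the FL and 142 ± 26.8 CPM in the LL (SD, n = 4 each). NTN1 (chromosome 18, 2029449 to 2040648), the classical secreted netrin, had 29.5, 20.1, 45.6 and 21.4 CPM in FL replicates 1 to 4, against 5.27, 13.3, 18.6 and 11.05 CPM in LL replicates 1 to 4. Every FL bird was above every LL bird, with FL replicate 3 the highest and LL replicate 1 the lowest. These levels rest on 88 to 336 counts per FL bird and 37 to 235 counts per LL bird. The fitted log2 fold change was 1.26 (SE 0.36), or 2.40-fold, with an unadjusted p of 0.0050 and an edgeR adjusted p of 0.164. DESeq2 placed NTN1 past the threshold (adjusted p = 0.0191). Without FL replicate 4 the log2 fold change was 1.38 (edgeR adjusted p = 0.126), and without FL replicate 3 it was 0.97 (edgeR adjusted p = 0.320).

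NTNG1 (chromosome 8, 823932 to 964180) encodes netrin-G1, which is anchored in the membrane and binds neither DCC nor UNC5 receptors. It had 9.37, 6.63, 7.32 and 5.37 CPM in FL replicates 1 to 4, against 2.56, 6.02, 5.06 and 4.83 CPM in LL replicates 1 to 4. FL replicate 4 was below LL replicate 2, and the other FL birds were above all LL birds. On the log2 scale the fold change was 0.64 ± 0.28 (SE), for which edgeR gave an adjusted p of 0.359. It was 0.77 without FL replicate 4. NTN4, a netrin of basement membranes, averaged 106 ± 10.1 CPM in the FL and 99.4 ± 17.1 CPM in the LL (SD, n = 4 each), with a log2 fold change of 0.10 (SE 0.13). NTNG2 averaged 22.4 ± 7.52 CPM in the FL and 24.1 ± 10.6 CPM in the LL (SD, n = 4 each), and the sign of its fold change depended on the birds kept. NTN3 was at 2.08 ± 1.05 CPM in the FL and 1.72 ± 0.838 CPM in the LL (SD, n = 4 each), with a log2 fold change of 0.27 (SE 0.43) and of -0.06 without FL replicate 4.

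**Figure D2:**
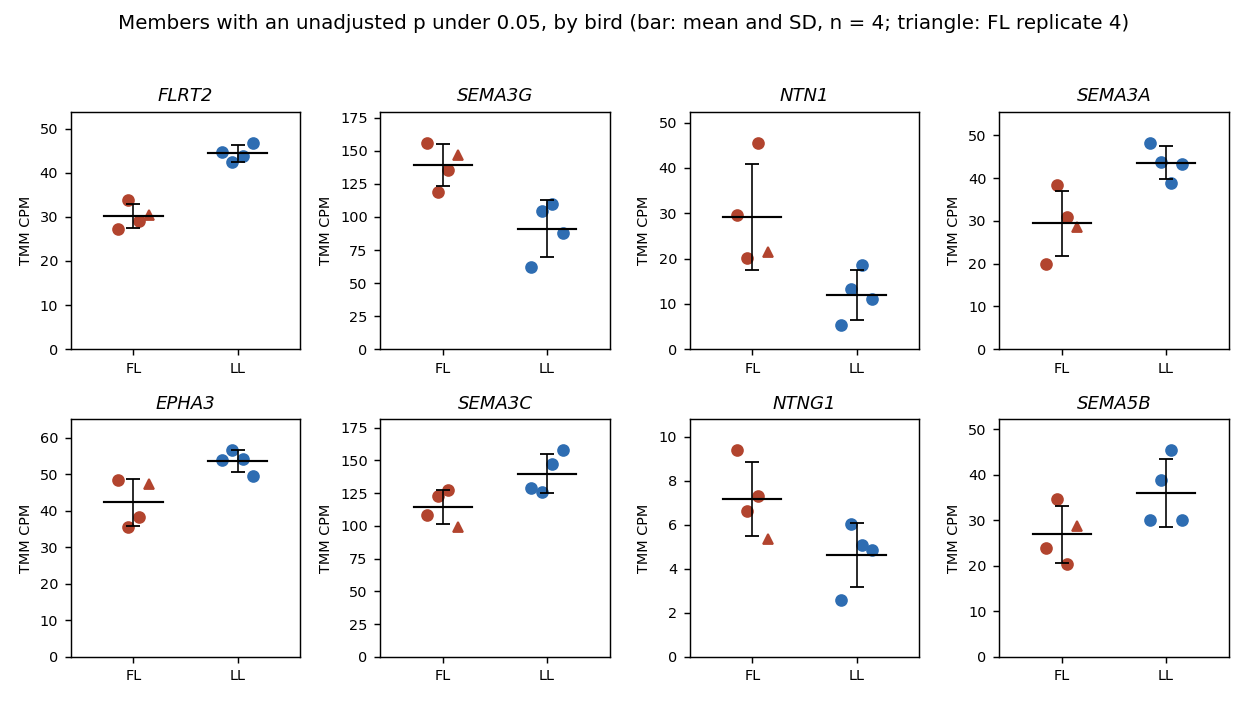
Level of the 8 genes with an unadjusted p under 0.05 (TMM CPM, vertical axes from 0) in each FL bird (left) and LL bird (right); bars are the mean and SD of 4 birds, and the triangle is FL replicate 4, which held skeletal muscle transcripts. The lines do not overlap for FLRT2, SEMA3G, NTN1, SEMA3A and EPHA3 and overlap for SEMA3C, NTNG1 and SEMA5B.

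Ephrins were scarce among the genes found. EFNB1 averaged 6.14 ± 0.761 CPM in the FL and 6.44 ± 1.57 CPM in the LL, and EFNA5 2.45 ± 0.484 CPM in the FL and 2.55 ± 0.320 CPM in the LL (SD, n = 4 each). Their log2 fold changes were -0.07 (SE 0.22) for EFNB1 and -0.07 (SE 0.25) for EFNA5, each smaller than its SE. Both gene models overlap another gene in the table (TMEM28 for EFNB1 and FBXL17 for EFNA5) along their whole span, and reads of the pairs may be shared.

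FLRT2 (chromosome 5, 44630659 to 44633044), a membrane protein with leucine-rich repeats that in mice is shed and repels UNC5-bearing cells, had the lowest p of the 40 genes. It had 27.3, 33.8, 29.2 and 30.4 CPM in FL replicates 1 to 4, against 44.7, 42.3, 43.7 and 46.8 CPM in LL replicates 1 to 4. The birds within each line lay close together, and the highest FL bird was well below the lowest LL bird. FLRT2 averaged 30.2 ± 2.78 CPM in the FL and 44.4 ± 1.88 CPM in the LL (SD, n = 4 each). This gave a log2 fold change of -0.56 (SE 0.10, unadjusted p = 0.00025), and the edgeR adjusted p of 0.0572 missed the threshold. Leaving out any 1 bird gave an edgeR adjusted p of 0.0626 to 0.179, while DESeq2 gave 0.00075. Without FL replicate 4 the log2 fold change was -0.57.

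FLRT3, the other FLRT protein found, had 32.4, 32.2, 47.7 and 29.4 CPM in FL replicates 1 to 4, against 26.1, 32.2, 31.9 and 30.2 CPM in LL replicates 1 to 4. FL replicate 3 stood above the other 7 birds, which overlapped. The log2 fold change of FLRT3 was 0.24 ± 0.16 (SE), for which edgeR gave an adjusted p of 0.579. It was 0.06 without FL replicate 3. The difference between the fold changes of FLRT2 and FLRT3 was not tested.

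Of the 17 receptors tested, 4 had a fold change above 0 and 13 below 0, with a median log2 fold change of -0.16. The Eph receptors made up 8 of these 13, and the plexins had 3 above and 3 below 0. Among the 20 ligands tested (semaphorins, netrins and ephrins) 11 were above 0, and the median was 0.10. With FL replicate 4 left out, 5 receptors were above and 12 below 0 (median -0.30), and 12 of the ligands were above 0 (median 0.04). Over all genes tested, 50.5% were above 0. An unadjusted p under 0.05, which 13.1% of all genes tested had, was found for 1 of the 17 receptors (EPHA3), for 6 of these 20 ligands and for FLRT2. Without FL replicate 4 it was found for 4 of the 17 receptors and 5 of the 20 ligands, beside 1649 of 11273 genes in all. The contrast in this count between ligands and receptors thus depended on that bird.

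The Eph receptors, tyrosine kinases that bind ephrins, were the only family with more than 2 tested members in which all lay on the same side. All 8 had a log2 fold change below 0, from -0.43 to -0.09 with a median of -0.24, and the medians were -0.29 for the 4 EphB receptors and -0.11 for the 4 tested EphA receptors. The summed level of the family was 283, 291, 294 and 352 CPM in FL replicates 1 to 4, against 308, 371, 415 and 359 CPM in LL replicates 1 to 4. FL replicate 4 and LL replicate 1 were the birds that made the lines overlap. At least 7 of the 8 stayed below 0 with any 1 bird left out, and the family median was then -0.34 to -0.18.

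EPHA3 (chromosome 1, 92450403 to 92670152), a receptor of A-type ephrins, had 48.4, 35.4, 38.2 and 47.2 CPM in FL replicates 1 to 4, against 54.0, 56.5, 54.2 and 49.4 CPM in LL replicates 1 to 4. The lines did not overlap, although FL replicate 1 and LL replicate 4 were nearly level. Fitted over all genes, the log2 fold change was -0.33 ± 0.12 (SE), for which edgeR gave an adjusted p of 0.266, and -0.39 without FL replicate 4. EPHB1 averaged 104 ± 13.7 CPM in the FL and 119 ± 19.2 CPM in the LL, and EPHB3 69.8 ± 14.9 CPM in the FL and 84.9 ± 15.7 CPM in the LL (SD, n = 4 each). The log2 fold changes were -0.20 (SE 0.14) for EPHB1 and -0.28 (SE 0.17) for EPHB3, and the birds of the lines overlapped for each.

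FL replicate 4 was the highest FL bird for EPHA4, EPHB1, EPHB2 and EPHB3 and the lowest for EPHA5. It had 124 CPM of EPHB1 (other FL birds 93.9 to 101), 44.6 CPM of EPHB2 (other FL birds 29.0 to 34.5) and 88.8 CPM of EPHB3 (other FL birds 54.3 to 73.5). It had 11.4 CPM of EPHA4 (other FL birds 9.15 to 11.1) and 17.9 CPM of EPHA5 (other FL birds 25.4 to 26.3). The part of its skeletal muscle transcripts in these values was not tested. Without this bird 4 of the 8 Eph receptors were lower in the FL at an unadjusted p under 0.05, beside 7.68% of all genes. These were EPHA3 (0.0126), EPHB1 (0.0436), EPHB2 (0.0074) and EPHB3 (0.0261), with edgeR adjusted p-values of 0.197, 0.322, 0.163 and 0.262. The log2 fold change was then -0.30 for EPHB1, -0.46 for EPHB2 and -0.42 for EPHB3. It was -0.38 for EPHB5, where all birds gave -0.43, and 0.03 for EPHA5, where all birds gave -0.09. EPHA4, EPHA5, EPHB2 and EPHB5 were singled out after their values had been seen. Of the 5 smooth muscle and pericyte markers, RGS5 and PDGFRB had log2 fold changes of -0.43 and -0.34 (edgeR unadjusted p = 0.0076 and 0.0269). ACTA2 and MYH11 had -0.04 and -0.01, DES had 1.71 (edgeR unadjusted p = 0.0173), and the median was -0.04. DES was at 161 CPM in FL replicate 4, where the other FL birds had 22.2 to 34.4 CPM and the LL birds 13.4 to 26.6 CPM. The part of skeletal muscle transcripts in that DES value was not tested. Nor was the part of smooth muscle cells and pericytes in the levels of the Eph receptors.

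**Figure D3:**
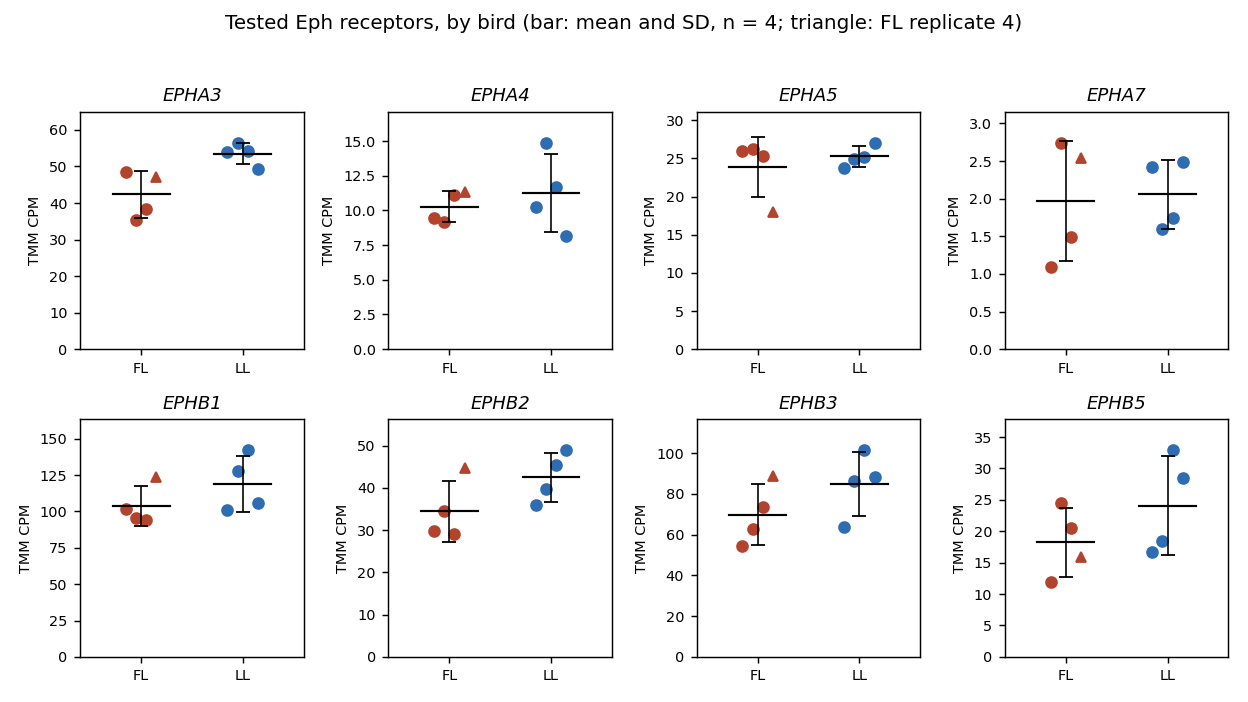
Level of the 8 tested Eph receptors (TMM CPM, vertical axes from 0) in each FL bird (left) and LL bird (right), with the mean and SD of 4 birds; the triangle is FL replicate 4. Each FL mean is below the LL mean, and the lines do not overlap for EPHA3. The triangle is the highest FL point for EPHA4, EPHB1, EPHB2 and EPHB3 and the lowest for EPHA5.

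Several receptors of the semaphorins were counted deeply. NRP1, the neuropilin that serves class 3 semaphorins and vascular endothelial growth factor, had 1054, 1332, 1143 and 1178 CPM in FL replicates 1 to 4, against 1383, 1483, 1397 and 1091 CPM in LL replicates 1 to 4. LL replicate 4 was below 3 of the FL birds, and the other LL birds were above all FL birds. The fitted log2 fold change was -0.19 ± 0.13 (SE), for which edgeR gave an adjusted p of 0.575. PLXND1, the endothelial plexin that binds SEMA3E, had 706, 843, 699 and 863 CPM in FL replicates 1 to 4, against 703, 938, 1040 and 804 CPM in LL replicates 1 to 4. The birds overlapped, and the log2 fold change was -0.16 (SE 0.14).

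PLXNA1, the partner of NRP1 in the response to SEMA3A, averaged 288 ± 50.5 CPM in the FL and 275 ± 46.1 CPM in the LL (SD, n = 4 each), with a log2 fold change of 0.07 (SE 0.15). The 4 other plexins tested had log2 fold changes from -0.16 (PLXNA2) to 0.11 (PLXNB2), so that the median of the 6 plexins was -0.01. Neither NRP1 nor any of the 6 plexins tested had an unadjusted p under 0.05, and NRP2 was not analysed.

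ROBO4, the endothelial member of the Slit receptors, had 25.8, 27.9, 30.7 and 33.4 CPM in FL replicates 1 to 4, against 28.8, 36.7, 46.2 and 26.1 CPM in LL replicates 1 to 4. LL replicate 3 was the highest, and LL replicate 4 lay within the FL range. On the log2 scale the fold change was -0.23 ± 0.18 (SE), for which edgeR gave an adjusted p of 0.642.

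The UNC5 receptors mediate repulsion by netrins, and the 3 found (UNC5A, UNC5C and UNC5D) had few counts. UNC5B was not among the genes found, so the level of the whole family is not known here. UNC5D averaged 2.91 ± 0.551 CPM in the FL and 2.23 ± 1.12 CPM in the LL (SD, n = 4 each), and its log2 fold change was 0.33 (SE 0.35). UNC5C had too few counts for the test in most birds, with 0.436, 0.915, 0.407 and 0.912 CPM in FL replicates 1 to 4, against 0.142, 4.43, 3.64 and 0.552 CPM in LL replicates 1 to 4. It reached 25 counts in LL replicate 2 and 46 counts in LL replicate 3 and no more than 9 in any other bird. The same pair of LL birds had the highest MSLN, and the part of mesothelial cells in these UNC5C counts was not tested. UNC5A had no more than 5 counts in any bird. UNC50, which is not a receptor of this kind, was at 26.9 ± 0.890 CPM in the FL and 25.1 ± 3.51 CPM in the LL (SD, n = 4 each).

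The genes that work with these ligands and receptors were followed in a pair of lists. Of 27 co-receptors, ligands and adhesion partners 18 were matched and 13 tested. None was called by edgeR, 1 was higher (6.49% of all genes tested) and 3 were lower in the FL (6.62%) at an unadjusted p under 0.05, and the median log2 fold change was -0.05. Leaving out FL replicate 4 gave 1 higher and 2 lower, none was called, and the median was -0.11. NEO1, or neogenin, which binds netrins and the repulsive guidance molecules, had 41.7, 67.7, 57.9 and 64.1 CPM in FL replicates 1 to 4, against 73.0, 86.5, 105 and 85.9 CPM in LL replicates 1 to 4. No FL bird reached the lowest LL bird (log2 fold change -0.60 ± 0.16, SE, with 0.152 as the edgeR adjusted p), and the fold change was -0.66 without FL replicate 4. In these birds the netrin NTN1 and the netrin receptor NEO1 pointed in opposite directions, though neither was called. UNC5D, the UNC5 receptor that was tested, had a log2 fold change of 0.33 (SE 0.35), and DCC was not matched. A relation between NTN1 and its receptors was not tested.

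LPHN3, a latrophilin that binds FLRT proteins on the opposite membrane, had 174, 170, 194 and 157 CPM in FL replicates 1 to 4, against 134, 155, 142 and 103 CPM in LL replicates 1 to 4. All FL birds were above all LL birds, by little for FL replicate 4 and LL replicate 2 (log2 fold change 0.38 ± 0.13, SE, with 0.236 as the edgeR adjusted p), and the fold change was 0.42 without FL replicate 4. The related LPHN2 had a log2 fold change of -0.25 (SE 0.11). GPC1, a proteoglycan that binds Slits, averaged 531 ± 44.8 CPM in the FL and 692 ± 71.7 CPM in the LL (SD, n = 4 each), without overlap and with a log2 fold change of -0.38 ± 0.11 (SE), for which edgeR gave an adjusted p of 0.178. It was -0.44 without FL replicate 4.

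Of 58 cytoplasmic effectors 31 were matched and all 31 were tested. None was called by edgeR, 1 was higher (6.49% of all genes tested) and 2 were lower in the FL (6.62%) at an unadjusted p under 0.05, and the median log2 fold change was -0.01. These 3 of 31 do not exceed the 13.1% of all genes tested. PAK1, a kinase activated by Rac and Cdc42 below plexins and Eph receptors, had 27.5, 24.5, 27.4 and 13.9 CPM in FL replicates 1 to 4, against 8.54, 13.3, 12.01 and 12.7 CPM in LL replicates 1 to 4. FL replicates 1 to 3 stood well above the LL, and FL replicate 4 was just above it (log2 fold change 1.00 ± 0.23, SE, with 0.116 as the edgeR adjusted p). When FL replicate 4 was left out, PAK1 was called, at a log2 fold change of 1.19 (edgeR adjusted p = 0.0322). It was among the 65 of 11273 genes (0.577%) called in that fit. At an edgeR unadjusted p under 0.05, 1 effector (PAK1) was then higher and 2 (ABL1 and DPYSL3) were lower. With all birds the 2 lower effectors were ABL1 and ARHGEF12. The tyrosine kinase ABL1 had a log2 fold change of -0.28 (SE 0.10).

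The spread between birds differed from gene to gene. The coefficient of variation over the 4 birds had a median of 20.3% in the FL and 17.5% in the LL over the 40 genes, and its range was 3.31% (UNC50) to 60.3% (PLXNA4B) in the FL and 4.24% (FLRT2) to 52.7% (SEMA3B) in the LL. LL replicate 1 was the lowest of the 8 birds for 10 of the 40 genes and the highest for 1, whereas LL replicate 3 was the highest for 10 and the lowest for 1. No FL bird was the highest for more than 6 or the lowest for more than 8. These counts were not set beside those over all genes tested, so they are not read as a trait of the 40 genes. SEMA3G and NTN1, for which LL replicate 1 was the lowest bird, had log2 fold changes of 0.47 and 1.02 without it.

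The runs of a bird did not all count the 40 genes alike. Runs 2 and 3 of each bird agreed closely, with a chi-square per degree of freedom (39 degrees) of 0.848 to 1.53. Run 1 differed from them by 8.33 to 14.1 in 6 birds, by 2.62 in FL replicate 4 and by 1.26 in LL replicate 3. The first runs of FL replicate 4 and LL replicate 3 were also the deepest, with 6723712 and 8391272 counts, where the other first runs held 2111341 to 4311571 counts. With runs 2 and 3 alone, NTN1 had a log2 fold change of 1.41 (edgeR adjusted p = 0.0519) and EPHA3 one of -0.44 (edgeR adjusted p = 0.1165). With run 1 alone NTN1 had 0.84 (edgeR adjusted p = 0.7581) and EPHA3 had -0.21 (edgeR adjusted p = 0.7889). The fold changes of FLRT2 (-0.55 and -0.58) and SEMA3G (0.60 and 0.57) differed little between these fits. With run 1 alone the edgeR adjusted p was 0.1545 for FLRT2 and 0.6896 for SEMA3G, against 0.0681 and 0.0476 with runs 2 and 3.

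**Figure D4:**
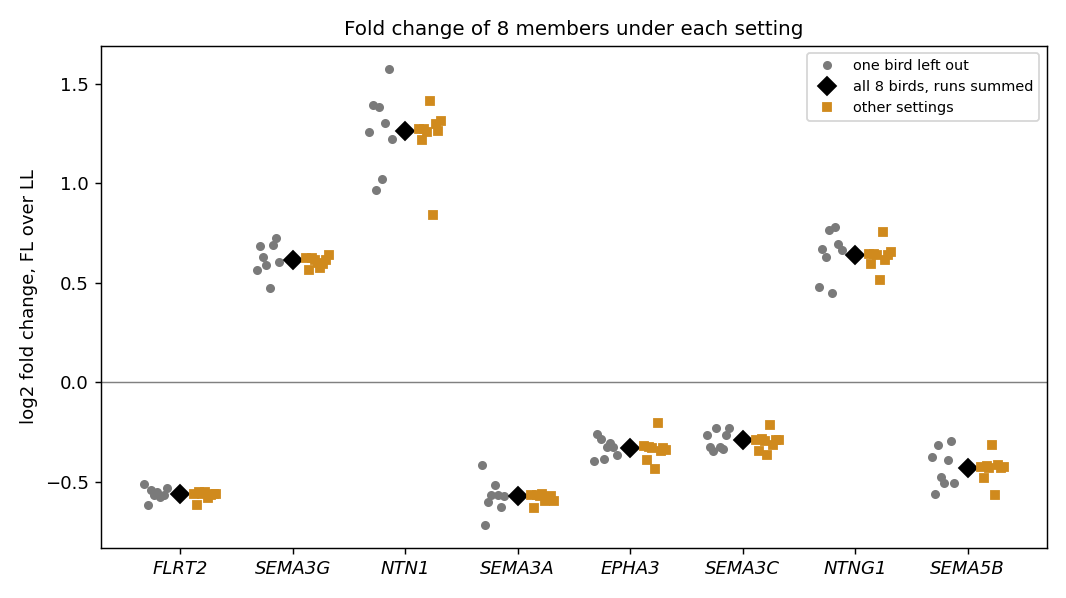
Log2 fold change (FL over LL, vertical axis) of the 8 genes with an unadjusted p under 0.05: black diamonds are the fit of all 8 birds, grey circles the fits with 1 bird left out, and orange squares the other settings of normalization, filter, runs, dispersion and block. Each gene stays on its side of 0 in every fit, and NTN1 has the widest range with 1 bird left out (0.97 to 1.58), while FLRT2 has -0.62 to -0.51.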

How the data were processed

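RNA of abdominal fat was sequenced as paired reads of 101 bases. The authors trimmed the reads, aligned them with CLC Genomics Workbench to chicken build 2.1 with at most 2 mismatches, dropped reads with several matches, and deposited raw counts of unique exon reads per gene and run, in which 200 nucleotides on each side of a gene were included. Base calling used CASAVA 1.8.2 per the submitters' processing notes. The 24 count columns were used. A further 24 per-sample columns of rescaled values were left out, as were the authors' means, fold changes and test results. Positions are those of the table, flanks included. Whether counting used strand is not given in the sources used here, and reads shared by close family members were dropped by the authors.

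Counts of the 3 runs per bird were summed and tested over all genes with edgeR 4.0.16 in R 4.3.3 (filterByExpr, TMM, quasi-likelihood F test, two-sided, Benjamini-Hochberg adjustment). A gene was called at an adjusted p of at most 0.05 and a fold change of at least 1.2. The SE is the log2 fold change divided by the square root of F. The biological coefficient of variation was 20.9%. The 4 birds of a line are separate animals. A count of 0 allows up to 3 counts (0.233 to 0.698 CPM before TMM scaling), which covers counting error only. Tables and figures were made with Python 3.11.15 and matplotlib 3.10.9.

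The members and the lists were chosen with earlier results of these data known. Genes are named with values if called, if their unadjusted p was under 0.05, if the lines did not overlap, if they were among the 2 highest of their family, or if all birds of 1 line, and none of the other, had no more than 3 counts; other names were chosen after their values were seen. NTN3 stands in the table under its UniProt entry name, EPHB5 is the gene that RefSeq calls EPHB6, and PLXNB1 is a RefSeq synonym of PLXNB3. Alternatives were DESeq2 1.42.0, scaling to total counts, other filters and fold thresholds, robust dispersion, runs 2 and 3 or run 1 alone, the 24 runs as replicates, the bird number as a block, and each bird left out. Leaving out FL replicate 4 from the counts of birds without overlap and from those of families and lists was chosen after seeing the data.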

Additional observations from a re-analysis of the deposited data

Results flagged for a closer look

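FLRT3 was at 47.7 CPM in FL replicate 3, where the other FL birds had 29.4 to 32.4 CPM. This gap was 0.838 of the range of the line, more than Dixon's test allows at 95% with 4 birds. The 24 named genes gave 48 groups of 4 birds, of which chance alone marks about 1 in 20.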

How the results depend on the processing

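With 4 birds per line and a biological coefficient of variation of 20.9%, small differences could not be detected. The UNC5 receptors and ephrins found, and NTN3, also had few counts. The counts of genes called out of the 40 (0 in the fit of all birds, and 0 with each bird left out) and over all genes (41) depended on the tool and on the runs. DESeq2 called 3 of the 40, beside 319 of 11187 genes in all. Runs 2 and 3 alone called 1 member (SEMA3G), beside 133 of 10515 genes in all. Run 1 alone called 0, beside 1 of 10243 genes in all. With the 24 runs as replicates edgeR called 8 members, beside 1327 of 9465 genes in all, since repeat runs of a library then count as separate birds. In that fit 5 members were higher and 10 lower in the FL at an edgeR unadjusted p under 0.05. Such a p was found for 2795 of 9465 genes in all. With run 1 alone 1 member was higher and 3 were lower, beside 850 of 10243 genes in all. The fits of run 1, of runs 2 and 3 and of the 24 runs filtered the genes anew, and not all of the 40 were tested in them. Of the 8 Eph receptors, 7 were tested in each. Without a filter 27 genes were called in all. Scaling to total counts turned the calls over all genes from 23 higher and 18 lower in the FL to 20 higher and 26 lower. With this scaling the median log2 fold change over all genes moved from 0.0021 to -0.055. At an edgeR unadjusted p under 0.05, 8 of the 40 were then lower and 2 higher in the FL. In either direction, such a p was then found for 1466 of 11187 genes. With 1 bird left out, 2 (without FL replicate 3 or LL replicate 2) to 65 genes (without FL replicate 4) were called in all, and 3 to 8 of the 40 were lower in the FL at an unadjusted p under 0.05, with 3 without FL replicate 1, FL replicate 3, LL replicate 2 or LL replicate 3 and 8 without LL replicate 1. Over all genes such a p, in either direction, was found for 1186 of 11326 (without LL replicate 2) to 1649 of 11273 (without FL replicate 4). Without FL replicate 4, 4 of the 40 in place of 2 lay wholly above the LL (NTNG1 and SEMA5A were added). Over all genes this share also rose, from 3.76% to 7.11%, so the rise is not read as a trait of the 40 genes. The median of the UNC5 receptors, which is UNC5D alone, was 0.17 to 0.80 with 1 bird left out.

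The labels do not say that birds of the same number were paired. The deviations of same-numbered birds correlated at 0.23, -0.06, -0.11 and -0.06, and those of differently numbered birds at -0.35 to 0.31. With 4 birds per line, these values cannot decide whether birds shared a batch. With the number as a replicate block, 8 genes were called in all and none of the 40.

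The sign of some log2 fold changes close to 0 turned. EFNA5 had 7.8e-05 with runs 2 and 3 alone and -0.16 to 0.036 with 1 bird left out. EFNB1 had 0.035 with run 1 alone and -0.21 to 0.061 with 1 bird left out. NTNG2 had 0.10 with run 1 alone and -0.33 to 0.22 with 1 bird left out. PLXNA1 had -0.063 to 0.19 with 1 bird left out, and UNC50 had -0.015 with runs 2 and 3 alone. The cause was not tested. NTN3 and EPHA5, which are named outside the rule, had -0.063 and 0.032 without FL replicate 4. Of the tested genes that the rule names, no other changed sign in these fits.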
